A study of Medicago sativa with 12 samples.

Results

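Serotonin N-acetyltransferase (SNAT) transfers an acetyl group to serotonin and so makes N-acetylserotonin, the direct precursor of melatonin. In the deposited expression table of alfalfa (Medicago sativa), a forage legume, 4 of 164632 gene models carry the description "serotonin N-acetyltransferase 2, chloroplastic". The rule that chose them used the description and no expression value, and they are reported as single models and as their sum (the SNAT sum). All 4 were among the 50931 gene models with a mean of at least 1 FPKM (fragments scaled to transcript length and to the mapped reads of the library). On that set single gene models were tested in the main fit.

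The study sequenced leaf RNA from 12 libraries of cultivar zhongmu 1#, with 3 biological replicates in each of 4 groups. SM plants received 150 mM NaCl together with 50 µM melatonin, S plants 150 mM NaCl, M plants 50 µM melatonin, and CK plants the Hoagland nutrient solution that all groups shared, with neither added. Seedlings of all groups had grown for about 3 weeks before treatment. The melatonin dose is the one selected in soil pre-experiments for all later work, and the sources used here do not state outright the treatment time of the sequenced leaves, nor whether a library pooled plants. The comparisons ask whether the SNAT models, described for a late step of melatonin synthesis, were expressed at another level in treated leaves. Leaves were given salt, melatonin from outside, or both.

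Plants make melatonin from tryptophan. A decarboxylase yields tryptamine, a hydroxylase yields serotonin, SNAT acetylates it, and an O-methyltransferase finishes the molecule. Plant SNAT is a small enzyme of the GNAT family of acetyltransferases and is generally targeted to the chloroplast. In Arabidopsis the enzyme known as SNAT1 is also called NSI, and it acetylates chloroplast proteins as well as serotonin. Models described as acetyltransferase NSI are not part of the SNAT sum here and are given further below. Melatonin itself is known in plants as an antioxidant and as a signal under abiotic stress.

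The 4 gene models sit at matching places on the 4 copies of chromosome 1 in this tetraploid assembly, whose build the sources used here do not name. MS.gene24476 lies at chr1.1:4635650-4636237, MS.gene00503 at chr1.2:5103410-5103997, MS.gene051692 at chr1.3:4777764-4778351 and MS.gene66460 at chr1.4:4948380-4948967. Each spans 588 bases on the minus strand, so that their FPKM values were scaled by the same span. The description names serotonin, while the 3 GO terms that all 4 models share name protein acetylation: peptide alpha-N-acetyltransferase activity (on 135 gene models), N-terminal protein amino acid acetylation (on 112) and protein acetyltransferase complex (on 62). No GO term of these models names serotonin or melatonin, and activity on serotonin was not measured.

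The surroundings of the copies also match. Among the 5 gene models on each side, 5 descriptions occurred beside all 4 copies, namely a methionine--tRNA ligase of chloroplast and mitochondrion, protein NPGR1, A-kinase anchor protein 17B and the uncharacterized proteins LOC11417871 and LOC11414211. Of the other descriptions, 1 stood beside 3 copies, 3 beside 2 copies and 9 beside 1 copy, and 2 models beside MS.gene66460 carried none. No SNAT model overlapped a neighbour. The nearest model on the same strand, LOC11417871, lay 1515 to 1529 bases away, and NPGR1 on the opposite strand lay 2912 to 4141 bases away on the other side.

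**Figure D1:**
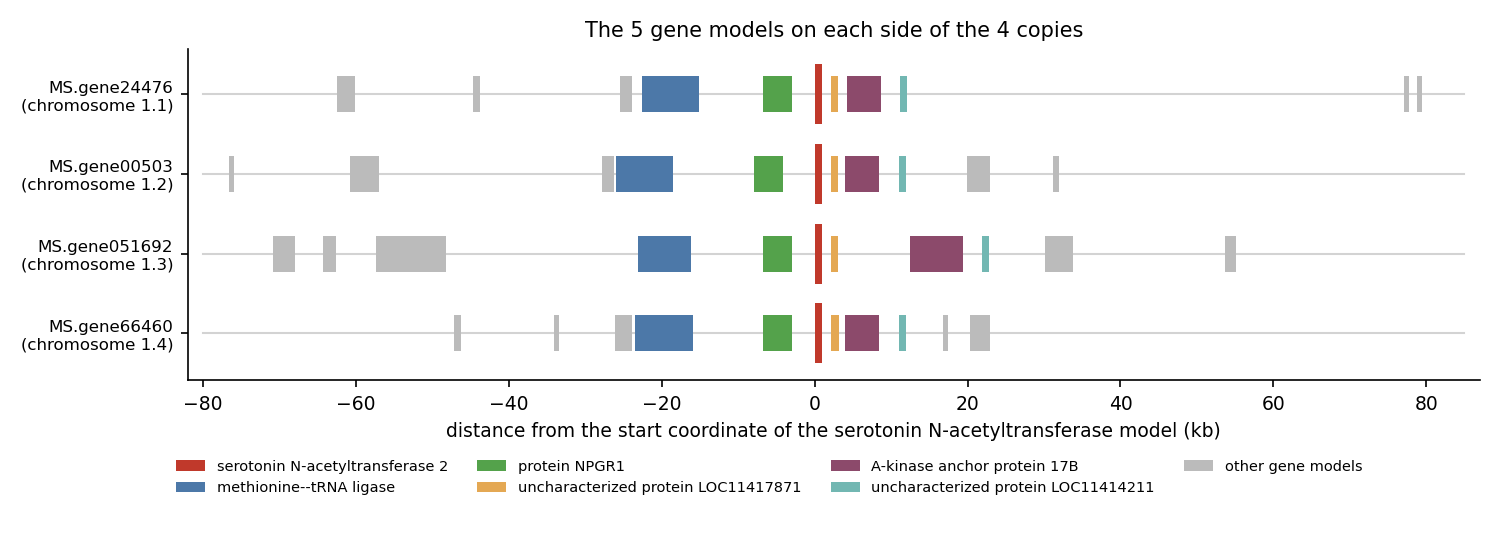
Map of the 5 gene models on each side of the 4 SNAT copies, drawn to scale, with the distance from the start coordinate of the SNAT model in kb on the x axis and 1 row for each chromosome copy. The 5 coloured neighbours occur in the same order beside all 4 copies, and grey boxes are other gene models.

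Estimated counts summed to between 45862158 and 57192229 per library. Of these, the SNAT sum took 710 to 1188 counts in SM, 1197 to 1867 in S, 436 to 506 in M and 283 to 440 in CK, and a single copy took between 24 and 876. By their profiles over all tested models, SM replicate 2 and S replicate 2 lay nearest to each other, M replicate 1 lay nearest to CK replicate 3, and CK replicate 1 lay nearest to M replicate 1. The leaf label was checked on marker descriptions. RuBisCO small chains summed to 3066 to 3701 FPKM in SM, 2838 to 11584 in S, 2645 to 3052 in M and 2488 to 5580 in CK, while 43 leghemoglobin models of root nodules summed to at most 0.518 FPKM and 35 Casparian strip membrane models of the root endodermis to at most 1.31 FPKM in any library. Other lists of non-leaf descriptions were not near 0. The 56 vicilin models, named for a seed storage protein, summed to 25.2 to 40.0 FPKM in SM, 21.8 to 48.5 in S, 39.7 to 44.0 in M and 26.8 to 43.1 in CK, and the 15 nodule cysteine-rich peptide models to 1.07 to 1.78 FPKM in SM, 0.124 to 0.752 in S, 2.15 to 2.74 in M and 1 to 1.54 in CK.

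The SNAT sum was highest in leaves given salt alone. It was 26.3, 22.4 and 31.8 FPKM in the SM libraries, 39.4, 33.7 and 48.4 FPKM in the S libraries, 13.2, 12.2 and 13.7 FPKM in the M libraries, and 10.2, 7.65 and 12.1 FPKM in the CK libraries. The groups stood in the order S, SM, M, CK, and no neighbouring pair in that order overlapped. All 6 libraries from salt-treated plants lay above all 6 libraries from plants without salt. The means were 26.8 ± 4.74 FPKM in SM, 40.5 ± 7.41 in S, 13.04 ± 0.774 in M and 9.98 ± 2.22 in CK (SD, n = 3 each). Over the 12 libraries the sum averaged 22.6 FPKM, above 87.1% of the tested gene models, although it adds 4 copies and they are single models. MS.gene66460 alone, at 11 FPKM, lay above 74% of them, and the other 3 copies, at 3.79 to 3.93 FPKM, above 43.2% to 44.4%. In leaf tissue, fewer cells of an expressing type and less RNA per cell cannot be told apart.

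**Figure D2:**
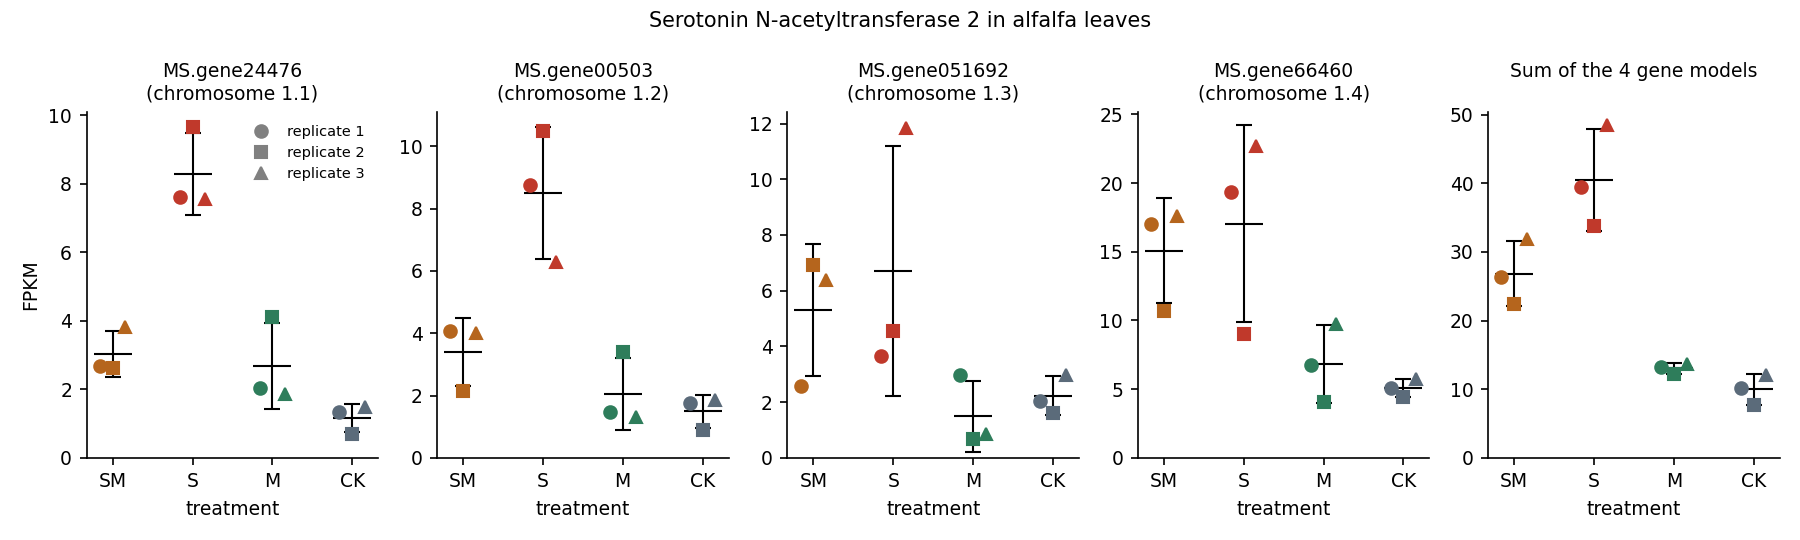
FPKM of each SNAT gene model and of their sum (y axis, a scale of its own in each panel) in the SM, S, M and CK libraries. Coloured symbols are single libraries, with shape marking the replicate number, and black lines are the mean and SD of 3 libraries; the sum runs from 33.7 to 48.4 FPKM in S and from 7.65 to 12.1 FPKM in CK.

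In S vs CK, the SNAT sum rose 4.06-fold by the ratio of its mean FPKM. The log2 fold change was 2.06 (SE 0.30, 95% interval 1.40 to 2.72), with an adjusted p of 0.0159 (quasi-likelihood test of edgeR, Benjamini-Hochberg adjustment over all rows). By p it ranked 121st of 50928 rows, and 7.38% of the rows had a higher log2 fold change. All the other rows were single gene models. The change kept its direction and nearly its size when each S or CK library was left out (log2 fold changes from 1.88 to 2.18). The call ended without CK replicate 2 (adjusted p = 0.069) and without CK replicate 3 (adjusted p = 0.0584), both in the same edgeR test, and with only the 6 libraries of the comparison in the fit (adjusted p = 0.0904).

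Every copy was higher in S than in CK, in every library. MS.gene24476 had 7.63, 9.66 and 7.55 FPKM in S, against 1.33, 0.710 and 1.49 FPKM in CK. MS.gene00503 had 8.76, 10.5 and 6.29 FPKM in S, against 1.76, 0.894 and 1.85 FPKM in CK. For these 2 copies the lowest S library was more than 3 times as high as the highest CK library. MS.gene051692 had 3.67, 4.56 and 11.9 FPKM in S, against 2.06, 1.62 and 2.99 FPKM in CK, and its S values spread widely, with replicate 3 far above the other two. MS.gene66460 had 19.4, 8.98 and 22.7 FPKM in S, against 5.07, 4.43 and 5.75 FPKM in CK, with S replicate 2 the lowest of the S libraries. The ranges did not overlap for any of the 4 copies, a separation in the same direction that 12.8% of all tested models showed in S vs CK.

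Taken singly, 1 of the 4 copies was called in S vs CK, that is, had an adjusted p below 0.05 in edgeR, where 1.54% of all tested models were called. It was MS.gene24476, with a log2 fold change of 2.85 (SE 0.50, adjusted p = 0.0295 in edgeR). That call ended when any single S or CK library was left out (adjusted p from 0.0583 to 0.108 in edgeR), while the log2 fold change stayed between 2.58 and 3.01. MS.gene00503 had 2.54 (SE 0.56, adjusted p = 0.0571), MS.gene66460 had 1.78 (SE 0.49, adjusted p = 0.106) and MS.gene051692 had 1.64 (SE 0.74, adjusted p = 0.311), all as log2 fold changes with the edgeR test. Without S replicate 3, the log2 fold change of MS.gene051692 was 0.89. By the thresholds that the study's methods give (a change of more than 2-fold in either direction at p below 0.05 without adjustment), 3 of the 4 copies passed, as did 14.2% of all tested models. At an unadjusted p below 0.05 alone the share of all tested models was 16.1%. DESeq2 called 3 of the 4, beside 10.5% of all tested models, and limma called 2, beside 4.58% on log2(FPKM + 1) and 3.94% on log2(FPKM + 0.1). Because the copies may share reads, they are not 4 independent observations.

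**Figure D3:**
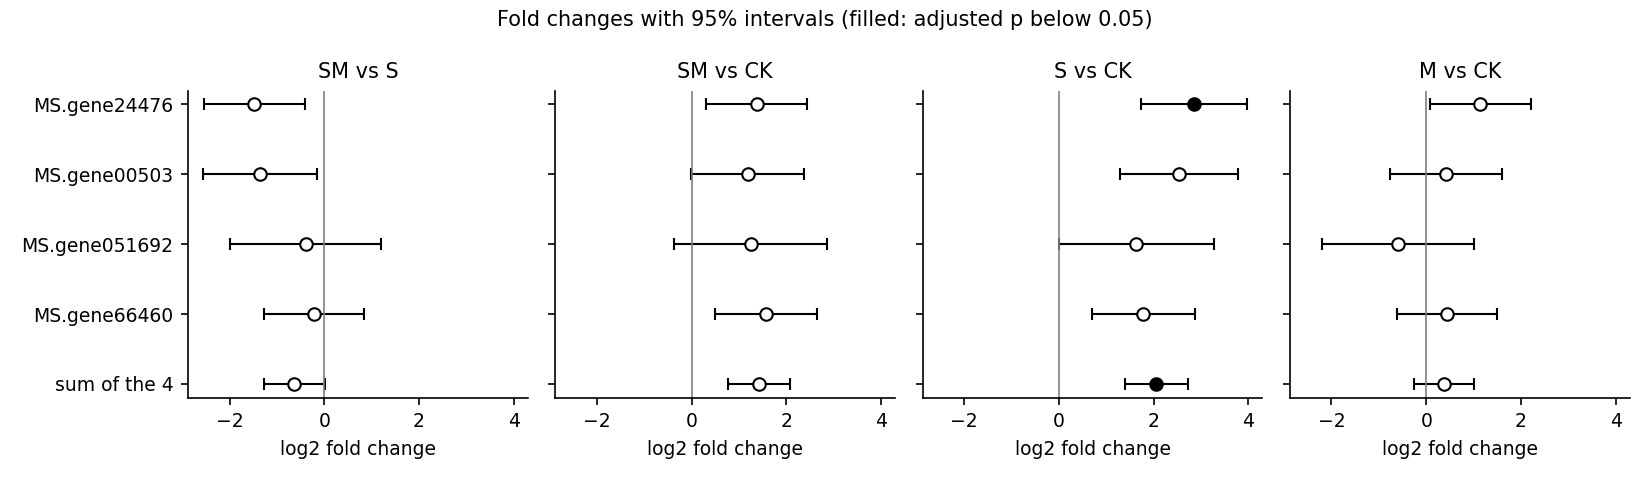
Log2 fold changes (x axis) of the 4 SNAT gene models and their sum in SM vs S, SM vs CK, S vs CK and M vs CK, with 95% intervals from edgeR's quasi-likelihood fit over 12 libraries. Filled points, MS.gene24476 and the sum in S vs CK, have an adjusted p below 0.05; the interval of the sum lies above 0 in SM vs CK and S vs CK and spans 0 in the other panels.

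With both treatments, the SNAT sum stood between those of S and CK. In SM vs CK its mean FPKM was 2.69 times as high, and the log2 fold change was 1.43 (SE 0.29, 95% interval 0.78 to 2.08), which missed the threshold after adjustment (adjusted p = 0.0766, edgeR's quasi-likelihood test). With DESeq2, which the study's methods name, the adjusted p was 2.4e-05, and with limma on log2(FPKM + 1) it was 0.0311. MS.gene66460 was the copy that stood highest above CK, with 17, 10.7 and 17.6 FPKM in SM, against 5.07, 4.43 and 5.75 FPKM in CK (log2 fold change 1.57, SE 0.49, adjusted p = 0.202 in edgeR). MS.gene24476 had 2.67, 2.63 and 3.81 FPKM in SM, and MS.gene00503 had 4.07, 2.15 and 4.01 FPKM in SM. Both lay above all of their CK libraries quoted above. MS.gene051692 had 2.58, 6.93 and 6.38 FPKM in SM and overlapped with CK through SM replicate 1. Thus 3 of the 4 copies did not overlap in SM vs CK, as did 12.8% of all tested models in that direction. None of the 4 was called, beside 0.342% of all tested models, and 2 had an unadjusted p below 0.05 in edgeR, beside 13.2%. Both also passed the study's thresholds, as did 11.6% of all tested models, and DESeq2 called 2 of the 4, beside 7.38%.

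Within salt, the level with melatonin was lower. In SM vs S the mean SNAT sum was 0.662 times as high, and the SM libraries (at most 31.8 FPKM) all lay below the S libraries (at least 33.7 FPKM). The log2 fold change of -0.63 (SE 0.29, 95% interval -1.27 to 0.01) did not pass the test (adjusted p = 0.872, edgeR's quasi-likelihood test). The copies differed in size here. MS.gene24476 averaged 3.04 ± 0.672 FPKM in SM and 8.28 ± 1.20 in S, and MS.gene00503 averaged 3.41 ± 1.09 FPKM in SM and 8.52 ± 2.12 in S (SD, n = 3 each). Their log2 fold changes were -1.48 (SE 0.48, adjusted p = 0.839) and -1.35 (SE 0.54, adjusted p = 0.848) in edgeR, and neither overlapped between SM and S. MS.gene051692 averaged 5.30 ± 2.37 FPKM in SM and 6.69 ± 4.49 in S, and MS.gene66460 averaged 15.1 ± 3.85 FPKM in SM and 17.02 ± 7.17 in S, with overlapping ranges and log2 fold changes of -0.39 and -0.21, which turned to 0.32 and 0.06 without S replicate 3. That 2 of the 4 copies were lower without overlap compares with 5.54% of all tested models in SM vs S. None of the 4 was called by edgeR, beside 0.0177% of all tested models, 2 had an unadjusted p below 0.05, beside 5.76%, and passed the study's thresholds, beside 4.77%. DESeq2 called 1, MS.gene24476 (adjusted p = 0.0281), beside 1.55%.

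Without salt, melatonin went with a small difference. In M vs CK the mean SNAT sum was 1.31 times as high, and the lowest M library (12.2 FPKM) lay just above the highest CK library (12.1 FPKM). The log2 fold change was 0.38 (SE 0.29, 95% interval -0.26 to 1.02, adjusted p = 1 in edgeR's quasi-likelihood test), so that the interval takes in no change as well as a doubling. MS.gene24476, with 2.05, 4.12 and 1.87 FPKM in M, lay above its CK libraries without overlap (log2 fold change 1.15, SE 0.48, adjusted p = 0.873 in edgeR). MS.gene00503 had 1.48, 3.38 and 1.30 FPKM in M, MS.gene051692 had 2.96, 0.670 and 0.849 FPKM, and MS.gene66460 had 6.72, 4.03 and 9.71 FPKM. All 3 overlapped with CK, at log2 fold changes of 0.41, -0.60 and 0.44. Without M replicate 1, the value of MS.gene051692 was -1.51. So 1 of the 4 copies was higher without overlap, as were 7.84% of all tested models in M vs CK. None was called, by edgeR or DESeq2, beside 0.0118% of all tested models by edgeR and 1.66% by DESeq2, and 1 had an unadjusted p below 0.05 in edgeR, beside 5.58%, and passed the study's thresholds, beside 4.82%.

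The difference between the log2 fold changes of SM vs S and of M vs CK was -1.01 for the SNAT sum (SE 0.41, adjusted p = 0.778 in edgeR). For this interaction none of the 4 copies was called by edgeR, beside 0.0275% of all tested models, and 2 had an unadjusted p below 0.05, beside 6.17%. DESeq2 called 1, MS.gene24476 (-2.65, adjusted p = 0.00183), beside 1.84%.

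SM was set against M by values only. The SNAT sum was 2.06 times as high in SM as in M, and 1 of the 4 copies, MS.gene66460, was higher without overlap (mean 15.1 FPKM in SM and 6.82 FPKM in M), as were 10.8% of all tested models. Over all 12 libraries, salt went with a difference of 1.45 in the mean log2(FPKM + 1) of the SNAT sum, SM and S together minus M and CK together (two-sided exact permutation test within each melatonin level, p = 0.005, the smallest that its 400 arrangements can give). Melatonin, SM and M together minus S and CK together, went with a difference of -0.101 (two-sided exact permutation test within each salt level, p = 0.635). The pooled value averages differences of opposite sign on the same scale. Without salt the difference was 0.37 (M minus CK), and with salt it was -0.58 (SM minus S). Because they largely cancel, the pooled melatonin p cannot tell whether the level differed with melatonin at either salt level. These 2 tests were added after the values had been seen. The salt p followed from the lack of overlap of S with CK and of SM with M, and adds no support to it.

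Some marker descriptions differed with salt as the SNAT sum did. The 74 models described as chlorophyll a-b binding summed to 24161 to 29680 FPKM in SM, 25371 to 36534 in S, 4096 to 21023 in M and 9357 to 14353 in CK. A wider list of 93 models that also takes the spelling a/b overlapped among all groups (83831 to 93245 FPKM in SM, 76947 to 84794 in S, 40022 to 95239 in M, 56830 to 89912 in CK). Models with legumin in the description, a match that also takes leguminosin peptides, were lower with salt, at 0.832 to 4.62 FPKM in SM, 2.29 to 3.42 in S, 13.9 to 31.9 in M and 11.2 to 56.3 in CK, while legumin J itself, a seed storage protein, reached at most 1.01 FPKM in any library. Between 47 and 48 of the 59 legumin models were at 0 in all libraries of a group. The part of these differences in the SNAT values was not tested.

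Which copy carried the SNAT counts differed from library to library. MS.gene66460 took 49.9% of the summed counts on average and held the highest share in 10 of 12 libraries. The exceptions were S replicate 2, where MS.gene00503 led and MS.gene66460 took 26.6% (95% Wilson interval 24.2% to 29.2%, counting error only), and M replicate 2, where MS.gene24476 led with 33.7%. Its highest share, 70.6% (66.4% to 74.4%), was in M replicate 3. Shares ran from 9.54% to 33.7% for MS.gene24476, from 9.53% to 31.2% for MS.gene00503 and from 5.5% to 31% for MS.gene051692. The spread of a copy was mostly larger than that of the sum. Between the 3 M libraries the sum varied by 5.93% (coefficient of variation), while the copies varied by 41.6% to 85.2%, and between the 3 S libraries the sum varied by 18.3% and the copies by 14.5% to 67.1%.

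**Figure D4:**
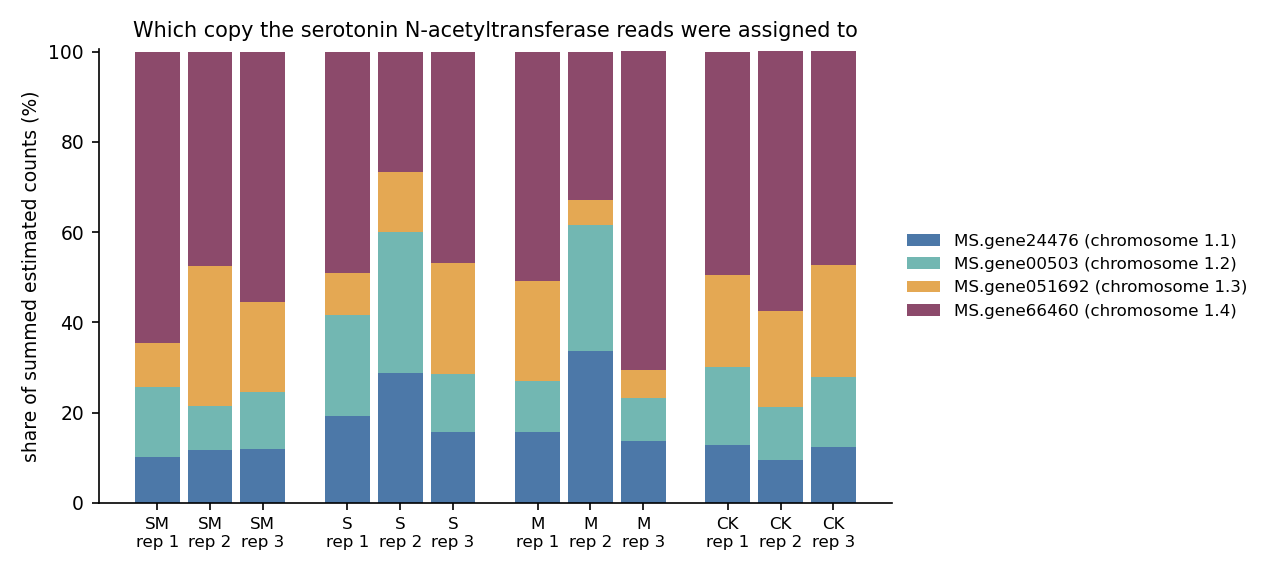
Share of the summed SNAT estimated counts that each gene model took (y axis, percent) in each of the 12 libraries, grouped as SM, S, M and CK. MS.gene66460 holds the largest part of 10 bars, and takes 26.6% in S replicate 2 and 33% in M replicate 2.

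The copies on chromosomes 1.1 and 1.2 had the most similar levels. The log2(FPKM + 1) values of MS.gene24476 and MS.gene00503 correlated at r = 0.95 over the 12 libraries and at r = 0.86 after the group means were removed. The other 5 pairs had r from 0.49 to 0.68 over the libraries and from -0.46 to 0.21 within groups. These are descriptions over 12 libraries that share their groups and depth, and reads from near-identical copies could have been assigned to either.

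No neighbouring model was called higher with the SNAT copies in any of the 4 comparisons. Of 40 neighbouring models, 23 were tested, and edgeR called 2 of them in S vs CK, both lower, beside 0.542% of all tested models called lower. MS.gene00506, uncharacterized protein LOC11414211 beside MS.gene00503, averaged 0.0695 FPKM in S and 2.17 FPKM in CK (log2 fold change -4.77, SE 0.87, adjusted p = 0.0324 in edgeR, and 0.0558 to 0.0874 when single libraries were left out). The LOC11414211 models beside the other copies were also low in S, at means of 0.0675 to 0.149 FPKM, against 1.39 to 4.58 FPKM in CK, without passing the test. MS.gene66455, described as strigolactone esterase RMS3, the name of a strigolactone receptor in pea, averaged 34.6 FPKM in S and 148 FPKM in CK (log2 fold change -2.06, SE 0.43, adjusted p = 0.0485 in edgeR), a call that held only without CK replicate 1 when single libraries were left out (adjusted p up to 0.139 in edgeR). The RMS3 model beside MS.gene24476, MS.gene24472, went the other way, with means of 26.9 FPKM in S and 19.4 FPKM in CK, without a call. LOC11417871, the nearest neighbour on the same strand, averaged 21.5 FPKM in S and 3.58 FPKM in CK beside MS.gene24476, and 24.7 FPKM in S and 32.0 FPKM in CK beside MS.gene66460, with no call at either.

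The steps before SNAT were taken by description. The tryptophan synthesis list, which missed the differently spelled phosphoribosylanthranilate isomerases of that pathway, had 52 gene models, 28 of them tested. None was called by edgeR in any of the 4 comparisons. An unadjusted p below 0.05 in edgeR was seen for 3 models in M vs CK, beside 5.58% of all tested models. In S vs CK it was seen for 3, beside 16.1%, and in SM vs CK for 2, beside 13.2%. In SM vs S there were 3, beside 5.76%. DESeq2 called 1 model in M, 2 in S and 1 in SM, each against CK, beside 1.66%, 10.5% and 7.38% of all tested models, and 0 in SM vs S, beside 1.55%. The median log2 fold change of the 28 was 0.02 in S vs CK, beside 0.05 over all tested models. The summed level was 254 ± 9.42 FPKM in SM, 232 ± 28.4 in S, 256 ± 33.0 in M and 203 ± 23.1 in CK (SD, n = 3 each), and S and CK overlapped. The most abundant model, MS.gene007567 (chromosome 7.1, 9289452 to 9294173), a tryptophan synthase alpha chain that makes indole for the last step to tryptophan, averaged 30.7 FPKM in S and 20.5 FPKM in CK (adjusted p = 0.61 in edgeR).

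No gene model was described as a tryptophan decarboxylase, and the 8 models of the list were tyrosine decarboxylases, related enzymes that make tyramine. Their sum was low and was highest in S, with 2.41, 2.54 and 4.38 FPKM in SM, 4.99, 4.92 and 11.1 FPKM in S, 1.49, 2.60 and 0.986 FPKM in M, and 0.617, 0.493 and 0.249 FPKM in CK. No S library overlapped with a CK library, a separation that 12.8% of single tested models showed in that direction, and S replicate 3 stood above the others. In S vs CK the summed counts rose, with a log2 fold change of 3.93 (SE 0.61, adjusted p = 0.0194, edgeR's quasi-likelihood test). The call ended without S replicate 3 (adjusted p = 0.0511), CK replicate 2 (0.0757) or CK replicate 3 (0.0699), all in edgeR, at log2 fold changes of 3.39 to 3.99. The 1 tested model, MS.gene83363 (chromosome 7.3, 13596759 to 13601501), stood at 3.95 on the same scale in S vs CK, with an adjusted p of 0.187 in edgeR. It had 0.82, 1.97 and 6.7 FPKM in S and at most 0.411 FPKM in CK. Its mean passed the filter only through S replicate 3, so that the test of this model in S vs CK adds no support. No model was described as a tryptamine 5-hydroxylase, the enzyme that makes serotonin, and none named melatonin or indoleamine 2,3-dioxygenase.

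After SNAT comes O-methylation. Of 5 models described as acetylserotonin O-methyltransferase, the enzyme that completes melatonin, only MS.gene48235 (chromosome 4.2, 77575125 to 77580300) passed the filter. It did so only through S replicate 3 (19.2 FPKM), while SM replicate 3 had 7.49 FPKM. The 5 models summed to 0.103, 0 and 7.81 FPKM in SM, 0.574, 0.494 and 19.2 FPKM in S, 0.461, 0.0761 and 0.0634 FPKM in M, and 0.412, 0 and 0 FPKM in CK. The level was therefore high in replicate 3 of S and of SM and near 0 elsewhere, and S vs CK did not pass the test (adjusted p = 0.329 for the sum in edgeR). Its log2 fold change of 6.47 became 2.07 without S replicate 3.

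**Figure D5:**
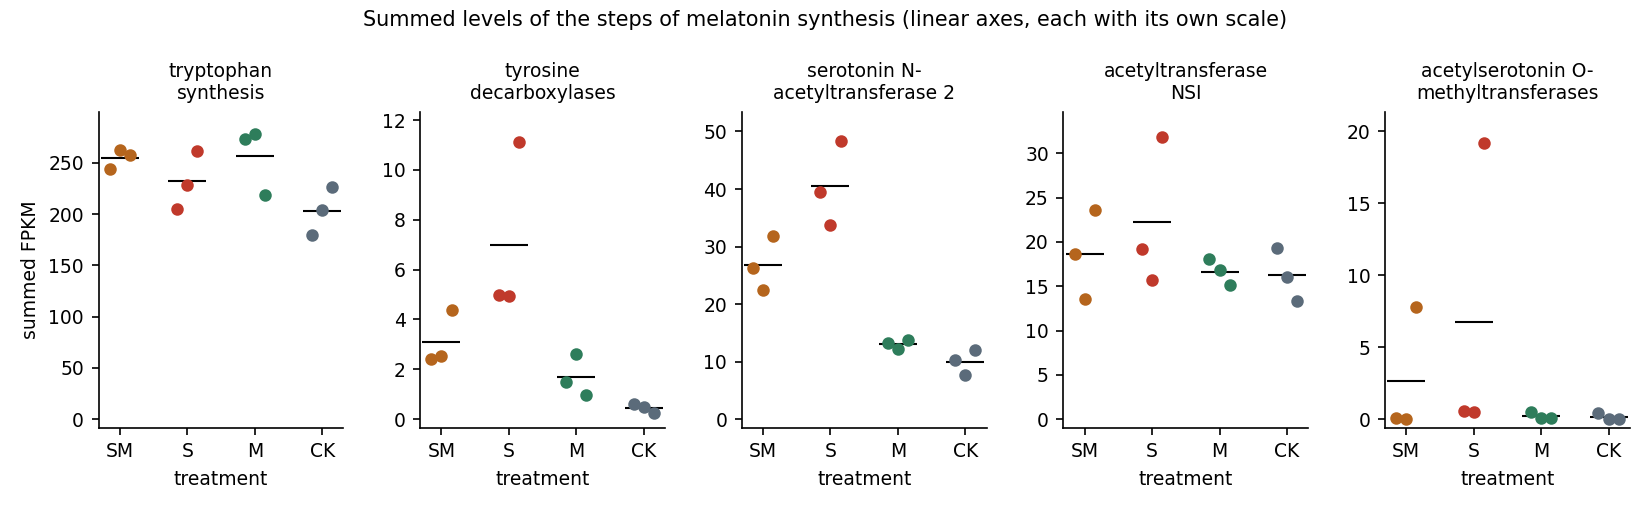
Summed FPKM (y axis, linear, a scale of its own in each panel) of the gene models described for tryptophan synthesis, tyrosine decarboxylases, SNAT, acetyltransferase NSI and acetylserotonin O-methyltransferases. Points are the 3 libraries of SM, S, M and CK and bars their mean. S and CK do not overlap for tyrosine decarboxylases and SNAT, and overlap for tryptophan synthesis and NSI. For acetylserotonin O-methyltransferases they are apart only near 0 (at least 0.494 FPKM in S, at most 0.412 FPKM in CK), with 19.2 FPKM in S replicate 3. Of single tested models, 12.8% were higher in S than in CK without overlap.

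Models with other acetyltransferase descriptions were set beside the SNAT sum by the same measures. Because Arabidopsis SNAT1 is also called NSI, the SNAT sum may not hold every SNAT gene model. The 4 models described as acetyltransferase NSI, a list added after the table was seen, summed to 18.7, 13.6 and 23.6 FPKM in SM, 19.2, 15.7 and 31.8 FPKM in S, 18.1, 16.8 and 15.1 FPKM in M, and 19.3, 16.1 and 13.4 FPKM in CK. All groups overlapped, and none of the 4 was called in any comparison by edgeR or DESeq2, with no unadjusted p below 0.05 in edgeR. In S vs CK the NSI sum had a log2 fold change of 0.46 (SE 0.35, 95% interval -0.30 to 1.23, adjusted p = 0.595 in edgeR), and the interval of the SNAT sum (1.40 to 2.72) lay above it. That difference itself was not tested.

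Of 46 models with other N-acetyltransferase descriptions, 16 were tested and 1 rose, in S and in SM, each against CK, beside 0.997% of all tested models called higher in S vs CK. MS.gene067108 (chromosome 7.3, 91312876 to 91315541), a heparan-alpha-glucosaminide N-acetyltransferase-like protein, had 12.5, 18.2 and 13.7 FPKM in SM, 43.3, 22.4 and 19.2 FPKM in S, 2.28, 0.949 and 0.840 FPKM in M, and 1.26, 1.74 and 1.51 FPKM in CK. Its log2 fold change was 4.25 in S vs CK (SE 0.51, adjusted p = 0.0105 in edgeR), a call that held without any single library. It was 3.28 in SM vs CK (SE 0.49, adjusted p = 0.0363 in edgeR), a call that ended without any single library (adjusted p 0.0638 to 0.127 in edgeR). The most abundant model of the list, MS.gene20305 (chromosome 5.1, 7886241 to 7891036), of the GNAT family, averaged 22.1 FPKM in S and 38.3 FPKM in CK, without a call. Among 131 other models that carry the GO term peptide alpha-N-acetyltransferase activity, 50 were tested and 1 rose in S vs CK, beside 0.997% of all tested models. It was MS.gene97081 (chromosome 4.4, 69924733 to 69926660), a putative GNAT family regulator. This model had 8.09, 10.8 and 13.8 FPKM in S, against 0.225, 0.316 and 0.648 FPKM in CK (log2 fold change 4.77, SE 0.65, adjusted p = 0.0142 in edgeR, and 0.0618 without CK replicate 2). The whole set of 131 summed to 409 ± 21.0 FPKM in S and 415 ± 45.4 FPKM in CK (SD, n = 3 each).

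The gene models whose profile was most like that of the SNAT sum were found by Pearson correlation of log2(FPKM + 1) over the 12 libraries, a description over libraries that share groups and depth. MS.gene029128 (chromosome 1.3, 78621708 to 78623753), a lumenal subunit of the photosynthetic NDH complex, had r = 0.985, with means of 14.0 FPKM in SM, 24.9 in S, 2.62 in M and 1.56 in CK. MS.gene69886 (chromosome 3.4, 75865034 to 75866428), an uncharacterized protein, had r = 0.982. MS.gene75432 (chromosome 3.3, 73303560 to 73305736), a photosystem II 22 kDa protein, known in other plants for dissipating excess light, had r = 0.978, with 33.5 FPKM in SM, 98.7 in S, 1.53 in M and 0.707 in CK. MS.gene018588 (chromosome 7.4, 11044323 to 11045225), photosystem I reaction center subunit IV B, had r = 0.969, and MS.gene068375 (chromosome 8.3, 66975106 to 66975372), a hypothetical protein, had r = 0.964. Of 50927 models compared, 282 lay above 0.9 and 1350 (2.65%) above 0.8, and the 5 named here were chosen as the highest. The single copies correlated with their own sum at 0.752 to 0.903, below these 5.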

How the data were processed

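Leaf RNA of 12 libraries was sequenced on an Illumina NovaSeq instrument. The authors trimmed reads with Cutadapt, mapped them with HISAT2 (version 2.0.4) and assembled and quantified transcripts with StringTie and Ballgown. The deposited table gives an FPKM value and an estimated count for each gene model. The treatment of multi-mapping reads is not given in the sources used here, so near-identical copies may have exchanged reads. The members and lists were chosen with earlier results of these data known. The estimated counts, already whole in the deposited table, were tested with edgeR 4.0.16 in R 4.3.3: TMM normalization, 1 quasi-likelihood fit over 12 libraries by group, and Benjamini-Hochberg adjustment over the 50931 models whose FPKM averaged 1 or more. For the SNAT sum, 1 summed row replaced the 4 models. The sum of each other list took the counts of all its models, also those below the filter, and was tested as an added row. DESeq2 1.42.0 and limma 3.58.1 (on log2(FPKM + 1) and log2(FPKM + 0.1)) were alternatives, as were RLE normalization, no filter, the 6 libraries of a comparison, a replicate block, summing by description and leaving out each library. The scripts were tested on simulated data, where a higher share of false calls was allowed for DESeq2 than for the edgeR and limma fits. Named models were the members, the most abundant and the called models of each list, 5 neighbours on each side, and the 5 most similar profiles. Single values of 3 against 3 libraries cannot reach an exact permutation p below 0.1, so only pooled treatments were tested that way. Sequences of the members were not used here. An item of the pathway is not reported here.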

Additional observations from a re-analysis of the deposited data

Results flagged for a closer look

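Melatonin went with opposite differences with and without salt for the SNAT sum: every M library lay above every CK library (12.2 to 13.7 FPKM in M and 7.65 to 12.1 FPKM in CK), while every SM library lay below every S library (22.4 to 31.8 FPKM in SM and 33.7 to 48.4 FPKM in S). The difference between the 2 log2 fold changes, SM vs S minus M vs CK, was -1.01 (SE 0.41, 95% interval -1.92 to -0.11, adjusted p = 0.778 in edgeR's quasi-likelihood test), and it did not pass the threshold. Leaving out any of the 12 libraries gave -1.14 to -0.85.

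MS.gene24476 showed the same arrangement of libraries, and its difference was -2.62 (SE 0.68, adjusted p = 0.65 in edgeR's quasi-likelihood test; adjusted p = 0.00183 with DESeq2). The other 3 copies did not show it. Both results were flagged by this arrangement itself, and the share of all tested models that show it was not counted. Taken apart, 7.84% of all tested models were higher in M vs CK without overlap, and 5.54% lower in SM vs S. Among the 4 copies, edgeR called none for the difference between the 2 log2 fold changes, beside 0.0275% of all tested models. An unadjusted p below 0.05 was seen for 2, beside 6.17%. The cause was not tested.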

How the results depend on the processing

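The log2 fold change of the SNAT sum kept its sign in each of the 4 comparisons under all 14 alternatives, and in the interaction under all 19. In S vs CK the call was lost in 3 of the 14: with only the 6 libraries (2.03), without CK replicate 2 (1.88) and without CK replicate 3 (2.18). Leaving out single libraries gave 1.88 to 2.18. With no filter the adjusted p was 0.0492 in edgeR. In SM vs CK the sum was called with DESeq2 (1.39), limma on log2(FPKM + 1) (1.35) or log2(FPKM + 0.1) (1.43) and after summing by description (1.36, adjusted p = 0.011 in edgeR), and leaving out single libraries gave 1.25 to 1.55. Of the 4 copies, 1 was called in S vs CK, against 0 with a replicate block, with no filter, with 6 libraries and without any single library (range 0 to 0), 2 with either limma fit and 3 with DESeq2. Calls over all 50931 tested models fell too, from 508 higher and 276 lower to 108 and 46 with the block. With no filter they were 207 and 106 of 105630 models. For the 6-library and left-out fits they were not counted. DESeq2 called 2 in SM vs CK, with 1 in SM vs S. It also called 10.5%, 7.38% and 1.55% of all tested models in these 3 comparisons. The study's thresholds, added after the values were seen, passed 1 copy in M, 3 in S and 2 in SM against CK, and 2 in SM vs S. Among all tested models they passed 4.82%, 14.2% and 11.6% in M, S and SM against CK, and 4.77% in SM vs S. On the lists those thresholds passed 1 melatonin pathway model in S vs CK, against 0 called there. It was MS.gene83363, which passed the filter only through S replicate 3. The thresholds also passed 3, 3 and 2 tryptophan models in M, S and SM against CK and 3 in SM vs S. Of the other N-acetyltransferases they passed 2 and 2 in S and SM against CK. The replicate block left 0 other N-acetyltransferases in SM vs CK, where it left 5 higher and 3 lower calls among all tested models. The main fit had 111 and 63. Signs turned for MS.gene00503 in M vs CK without M replicate 2 (-0.07 to 0.61 over single libraries left out), for MS.gene051692 and MS.gene66460 in SM vs S without S replicate 3 (-0.68 to 0.32 and -0.52 to 0.06), for the interaction of MS.gene051692 when single libraries were left out (-0.15 to 1.12) and for the sum of other N-acetyltransferases in SM vs S with DESeq2 (-0.01). Among list sums that were not called, single libraries left out also turned signs for the acetylserotonin O-methyltransferases (-0.83 to 6.43 in M vs CK, -1.31 to 10.95 in SM vs CK, -7.78 to 2.95 in SM vs S), for NSI in the same 3 comparisons (-0.51 to 0.31 over them), for the other N-acetyltransferases in SM vs S (-0.04 to 0.08) and for the models of the shared GO term in M and SM, each against CK. The cause was not tested.

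Replicate numbers did not pair the libraries: deviations of same-numbered libraries correlated at -0.06 to 0.04, and 3 of 12 libraries correlated best with their own number. With the replicate block the SNAT sum had 2.06 in S vs CK (adjusted p = 0.0389, edgeR). Counts of 24 to 113 for MS.gene051692 in M limit the precision of single copies more than that of the sum.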
